A study of Mus musculus with 36 samples.

Results

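The neutrophil granule genes examined here are 10 genes of the 24742 with usable values in the tables of the main olfactory epithelium (MOE) and of the 24737 in those of the vomeronasal organ (VNO) and the olfactory bulb (OB). They were taken by symbol: Elane, Mpo and Prtn3 for the primary granules, Ngp, Camp, Ltf and Lcn2 for the secondary granules, and S100a8, S100a9 and Retnlg for mature neutrophils. The first 7 are called immature below, because developing neutrophils in the bone marrow make these proteins. All 10 were present in every table. RNA-seq libraries were made from C57BL/6 mice of 6 months of age, all carrying no labelled mutation or drug treatment, after ribosomal RNA had been depleted from total RNA. Females (SF) and males (SM) of the sex-separated condition lived with their own sex from weaning in rooms that held only that sex, whereas in the sex-combined condition females (CF) and males (CM) shared cages, where litters were born and removed. Room and housing therefore cannot be told apart, nor can housing and breeding. Each of the 4 groups has 3 libraries per tissue, and each library is a pool of RNA from several mice, 2 by the series' design text and 3 by the published methods. The paper states that all 3 tissues were taken from each mouse, so libraries of different tissues can share mice. The VNO was taken with the vomer bone still attached.

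Neutrophils fill their granules in a fixed order while they mature in the bone marrow. The serine proteases and myeloperoxidase of the primary granules are transcribed first, in promyelocytes, and the antimicrobial proteins of the secondary granules later, in myelocytes. Circulating neutrophils have largely stopped making both sets and carry abundant S100a8 and S100a9 RNA. Some of these proteins have other sources: lactoferrin (Ltf) and lipocalin 2 (Lcn2) are also secreted by glands and epithelia, into nasal fluid, tears and milk among others.

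Fragments estimated from FPKM and its standard error summed to between 3016524 and 6779893 per library, and no 2 libraries were identical. These sums are below the number of aligned pairs that the paper gives for any library, so they are not the sequencing depth. The tissue labels were matched by their markers in all 36 libraries: the summed level of Omp, Cnga2, Adcy3 and Gnal was 906 to 1584 FPKM (fragments mapped, scaled to transcript length and to library depth) in MOE and at most 129 elsewhere, that of Trpc2, Vmn1r51 and Vmn2r1 was 47.1 to 65.6 in VNO and at most 1.99 elsewhere, and that of Th, Eomes, Slc17a7 and Gad1 was 261 to 336 in OB and at most 3.73 elsewhere.

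Several of the genes are neighbours. In mm9, the build of the files, Prtn3 (chr10:79342412-79345917) and Elane (chr10:79349057-79350961) lie 3.14 kb apart, and S100a8 (chr3:90472993-90473956) and S100a9 (chr3:90496552-90499643) 22.6 kb apart. Camp (chr9:109749891-109751970), Ngp (chr9:110322312-110325516) and Ltf (chr9:110921796-110945270) follow each other on chromosome 9, with gaps of 570 kb and 596 kb. Mpo (chr11:87607286-87617914), Lcn2 (chr2:32240157-32243259) and Retnlg (chr16:48872721-48874611) have no other of the 10 on their chromosome. These intervals span the transcripts with their introns.

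The promoters of the 3 genes on chromosome 9 are shown because the RNA of Ngp and Camp varied with that of S100a8 from library to library in MOE, whereas the correlation of Ltf with Ngp there was low. The 120 bases before each start are given 5′ to 3′ on the gene's strand, from RefSeq on GRCm38.p6 (Ngp, chr9:110419688-110419807, plus strand; Camp, chr9:109849457-109849576, minus strand; Ltf, chr9:111019172-111019291, plus strand). Capitals mark TTNNGCAA or its reverse complement TTGCNNAA, the letters bound by C/EBP factors, which drive granulocyte genes.
Ngp: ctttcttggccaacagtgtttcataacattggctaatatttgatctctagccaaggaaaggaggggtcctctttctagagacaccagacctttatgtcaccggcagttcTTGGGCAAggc
Camp: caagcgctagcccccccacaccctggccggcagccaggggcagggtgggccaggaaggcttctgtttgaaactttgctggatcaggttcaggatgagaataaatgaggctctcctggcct
Ltf: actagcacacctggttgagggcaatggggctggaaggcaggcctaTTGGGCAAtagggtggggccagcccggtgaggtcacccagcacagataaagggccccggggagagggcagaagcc

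All 10 genes had a RefSeq promoter. Within 250 bases before the start, and on either strand, the C/EBP letters occurred in 5 of the 10 promoters (Ngp, Ltf, Lcn2, S100a9 and Retnlg), against 9.56% of all 32851 promoters. In Ngp they occurred at -138 and -11, and in Ltf at -75, which is the same 8 letters as the Ngp copy at -11. GAGGAA or TTCCTC, the core read by PU.1, occurred in 6 (Elane, Mpo, Prtn3, Ltf, Lcn2 and S100a8), against 23.3% of all promoters, and TATAAA or TTTATA in S100a8 alone, at -30, against 12.4%. No match of 1 motif overlapped a match of another in these 10 promoters, and the motifs were chosen after values had been seen.

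Levels are given as FPKM, which is per length, so that genes can be set side by side. In MOE, Ltf stood highest at 187 ± 59.7 FPKM (SD, n = 12), followed by S100a8 at 34.6 ± 10.6 and S100a9 at 22.4 ± 7.37, in that order in 12 of 12 libraries. S100a8 and S100a9 encode the subunits of calprotectin. Camp (4.26 ± 2.03), a cathelicidin, Lcn2 (3.91 ± 0.751), a siderophore-binding protein, and Ngp (3.79 ± 1.65), a cystatin-like granule protein, could not be ordered: Camp exceeded Lcn2 in 8 of 12 libraries and Lcn2 exceeded Ngp in 5. Retnlg, a resistin-like secreted protein, had 1.60 ± 0.613 FPKM. The primary granule genes were lowest, with 0.919 ± 0.403 for Prtn3 (proteinase 3), 0.673 ± 0.322 for Mpo (myeloperoxidase) and 0.482 ± 0.317 for Elane (neutrophil elastase).

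**Figure D1:**
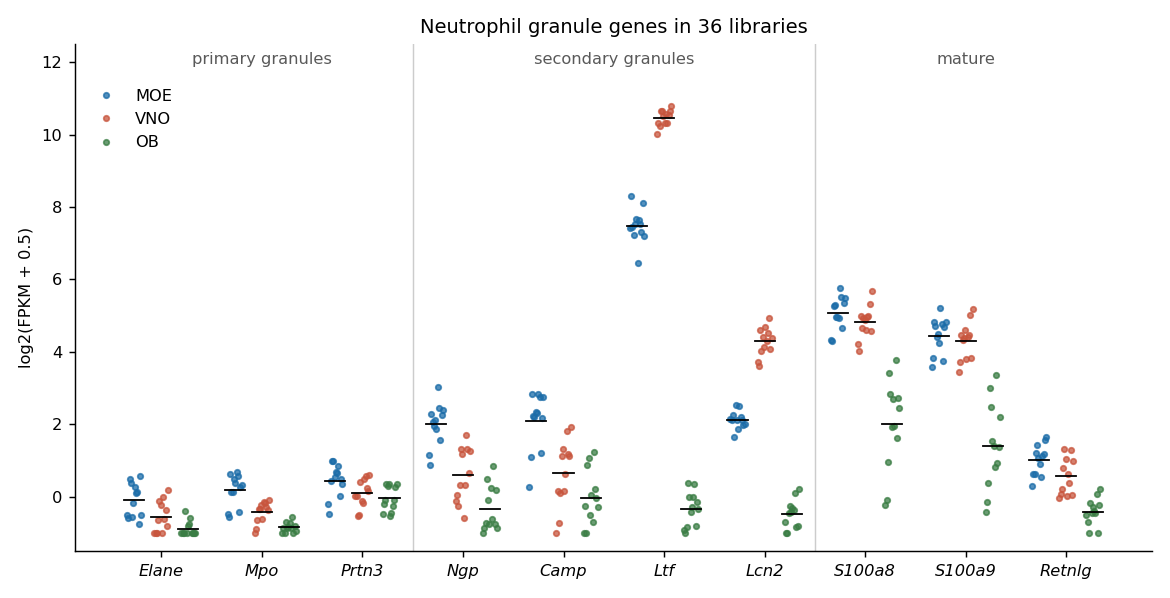
Level of each gene, as log2(FPKM + 0.5), in the 36 libraries (points; bars are means over the 12 libraries of a tissue), with genes grouped by granule. Ltf and Lcn2 stand higher in VNO than in MOE without overlap, Ngp and Camp have higher means in MOE, and OB has the lowest mean for all 10 genes.

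In VNO, Ltf reached 1424 ± 212 FPKM (n = 12) and Lcn2 19.6 ± 5.34, a level that exceeded S100a9 (20.4 ± 7.51) in 6 of 12 libraries. S100a8 was at 28.9 ± 9.31. The other members lay at or under 1.37 FPKM on average, Camp at 1.37 ± 1.08, Ngp at 1.20 ± 0.833, Retnlg at 1.07 ± 0.564 and Prtn3 at 0.603 ± 0.284. Camp, Ngp and Retnlg could not be ordered. Mpo (0.258 ± 0.143) and Elane (0.211 ± 0.220) were read from few fragments, a median of 13.0 and of 1.99 per library, and Elane was at 0 in 4 libraries. A count of 0 allows up to 3 fragments, or 0.211 FPKM for Elane at the depth of VNO.

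In OB, S100a8 was highest at 4.86 ± 3.86 FPKM (n = 12) and S100a9 next at 3.10 ± 3.00, above all other members on average. Their SDs are almost as large as their means, and their values by group follow below. The remaining means ran from 0.618 ± 0.630 for Camp and 0.497 ± 0.237 for Prtn3 to 0.0572 for Mpo and 0.0478 for Elane. Ltf, which led in both sensory epithelia, had 0.330 ± 0.274 FPKM in OB. Most of these values rest on a handful of fragments: the median per library was 21.0 for S100a8, 3.50 for Camp, 2.50 for Ngp and 0 for Elane, which was at 0 in 8 of 12 libraries, where a count of 0 allows up to 0.258 FPKM.

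Between tissues, the genes fell into 3 patterns. Ltf and Lcn2 were far higher in VNO than in MOE, with log2(FPKM + 0.5) differences, MOE minus VNO, of -2.98 ± 0.13 and -2.16 ± 0.13 (SE; limma, adjusted p = 2.0e-18 and 1.57e-15), with no overlap between the 12 libraries of each tissue. Ngp and Camp differed in the other direction, and were higher in MOE by 1.40 ± 0.22 (adjusted p = 1.41e-06) and 1.43 ± 0.27 (adjusted p = 1.81e-05), as were Retnlg by 0.45 ± 0.13 (adjusted p = 0.00226) and Prtn3 by 0.35 ± 0.11 (adjusted p = 0.00582), all 4 with overlapping ranges. S100a8 and S100a9 did not pass the test, with differences of 0.25 ± 0.21 (adjusted p = 0.259) and 0.14 ± 0.24 (adjusted p = 0.601). In all, 6 of the 8 members tested were called between MOE and VNO, 4 higher in MOE and 2 lower, where 82.6% of all 14642 genes tested were called, 48.6% higher and 34% lower in MOE. The median difference was 0.30 over the 8 members and 0.15 over all genes. Mpo and Elane averaged under 0.5 FPKM over the 36 libraries and were not tested. In a fit without that filter both were higher in MOE than in VNO, by 0.60 (adjusted p = 1.14e-05) and 0.46 (adjusted p = 0.00844).

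Against OB, 8 of 8 members tested were higher in MOE (85.1% of all genes were called, 45.7% higher and 39.4% lower in MOE) and 7 of 8 in VNO (85.8% called, 37.8% higher and 48% lower in VNO). In MOE the differences from OB ran from 7.82 ± 0.13 for Ltf, over 3.07 ± 0.21 for S100a8, 3.03 ± 0.24 for S100a9, 2.61 ± 0.13 for Lcn2 and 2.33 ± 0.22 for Ngp, to 0.49 ± 0.11 for Prtn3. In VNO they reached 10.80 ± 0.13 for Ltf and 4.77 ± 0.13 for Lcn2, and were 2.82 ± 0.21 for S100a8, 2.89 ± 0.24 for S100a9, 0.93 ± 0.22 for Ngp and 0.68 ± 0.27 for Camp. In these bulk samples, fewer cells of a type and less RNA per cell cannot be told apart. Prtn3 did not pass between VNO and OB (0.14 ± 0.11, adjusted p = 0.249). Under quantile normalization its direction turned there, to a log2 difference, VNO minus OB, of -0.25 (adjusted p = 0.0404), and its difference between MOE and OB fell to 0.18 (adjusted p = 0.141).

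**Figure D2:**
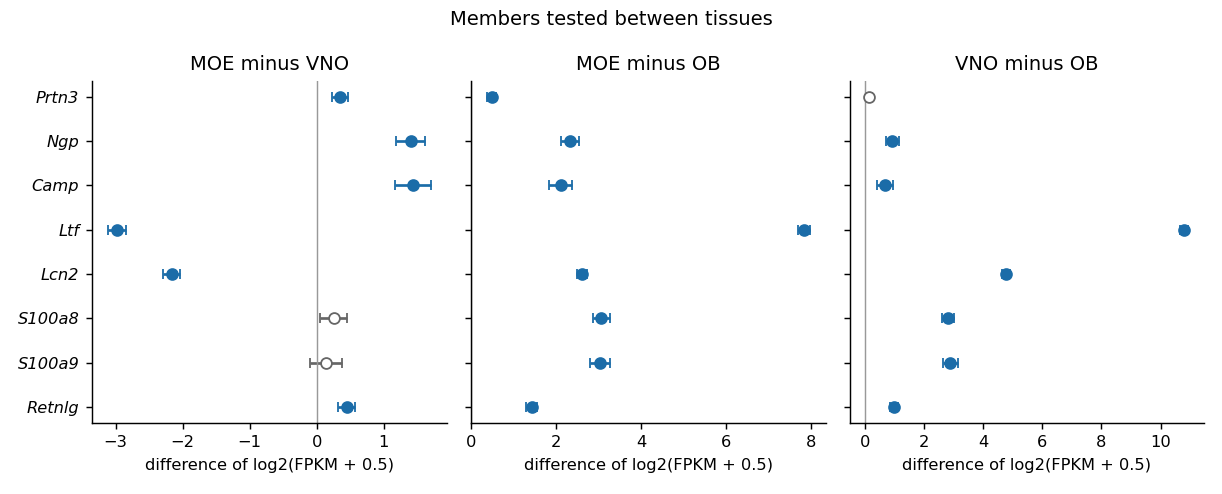
Difference of log2(FPKM + 0.5) between tissues for the 8 members tested (points; bars are SE; filled points have an adjusted p under 0.05 in limma). Between MOE and VNO, Ltf and Lcn2 lie at -2.98 and -2.16, Ngp and Camp at 1.40 and 1.43, and S100a8 and S100a9 are open points.

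Relative to S100a8 within the same library, Ngp had a median of 10.7% of the S100a8 level in MOE, of 3.60% in VNO and of 6.81% in OB. Camp had 12.8%, 4.20% and 8.31%. Mpo had 1.85%, 0.932% and 1.12%, and Prtn3, also a primary granule gene, 2.27%, 2.32% and 13.6%. Lcn2 stood at 10.8% of S100a8 in MOE, at 70.5% in VNO and at 4.70% in OB. S100a9 kept medians of 65.0%, 69.3% and 71.5% in the 3 tissues.

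Whether the members differed by sex or housing was asked in each tissue for SF against SM, CF against CM, SF against CF, SM against CM, and the interaction of sex and housing. Comparisons that name the same group share its libraries. Over these 15 comparisons limma called 0 members, with 26 of 100 member tests at an unadjusted p under 0.05. In the order just given, 0.0944%, 0.0436%, 0.0363%, 0.0654% and 0.029% of all genes were called in MOE. In VNO these shares were 0.0721%, 0.0433%, 0%, 0% and 0%. In OB they were 0.039%, 0.0468%, 0.00781%, 0% and 0.00781%. At an unadjusted p under 0.05 stood 2, 1, 5, 1 and 4 of the 9 members tested in MOE (4.16%, 1.76%, 2.03%, 6.93% and 4.59% of all genes), 4, 0, 1, 0 and 0 of the 8 in VNO (8.79%, 3.94%, 11%, 2.31% and 5.26%) and 3, 0, 2, 0 and 3 of the 3 in OB (4.58%, 5.69%, 2.8%, 3.4% and 4.12%). The smallest p-values lay in OB, for S100a8 between SF and CF and between SF and SM, followed by Prtn3 in the MOE interaction. S100a8 had 0.349, 0.431 and 1.45 FPKM in the SF libraries of OB, against 10.2, 6.66 and 3.25 in SM, 5.99, 3.36 and 13.1 in CF and 2.55, 6.11 and 4.95 in CM. S100a9 had 0.240, 0.405 and 0.786 in SF, against 7.53, 5.05 and 2.42 in SM, 2.14, 1.28 and 9.81 in CF and 1.39, 2.08 and 4.07 in CM. For both genes the 3 SF libraries were the lowest of the 12, and the other 3 groups overlapped.

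In OB, S100a8 was lower in SF than in SM and than in CF, with log2 changes of -2.51 ± 0.48 and -2.60 ± 0.48, but after adjustment over 12808 genes both missed the threshold (limma, adjusted p = 0.293 and 0.454). S100a9 gave -2.41 ± 0.55 (adjusted p = 0.677) and -1.94 ± 0.55 (adjusted p = 1). Of the 3 members tested in OB, 3 had an unadjusted p under 0.05 between SF and SM, as did 4.58% of all genes. The members' median change was -2.41 and that of all genes -0.07. With only the 6 SF and SM libraries in the fit, S100a9 passed (adjusted p = 0.0297) and S100a8 had an adjusted p of 0.0733. The interaction of sex and housing was -3.06 ± 0.68 for S100a8 (adjusted p = 0.999).

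**Figure D3:**
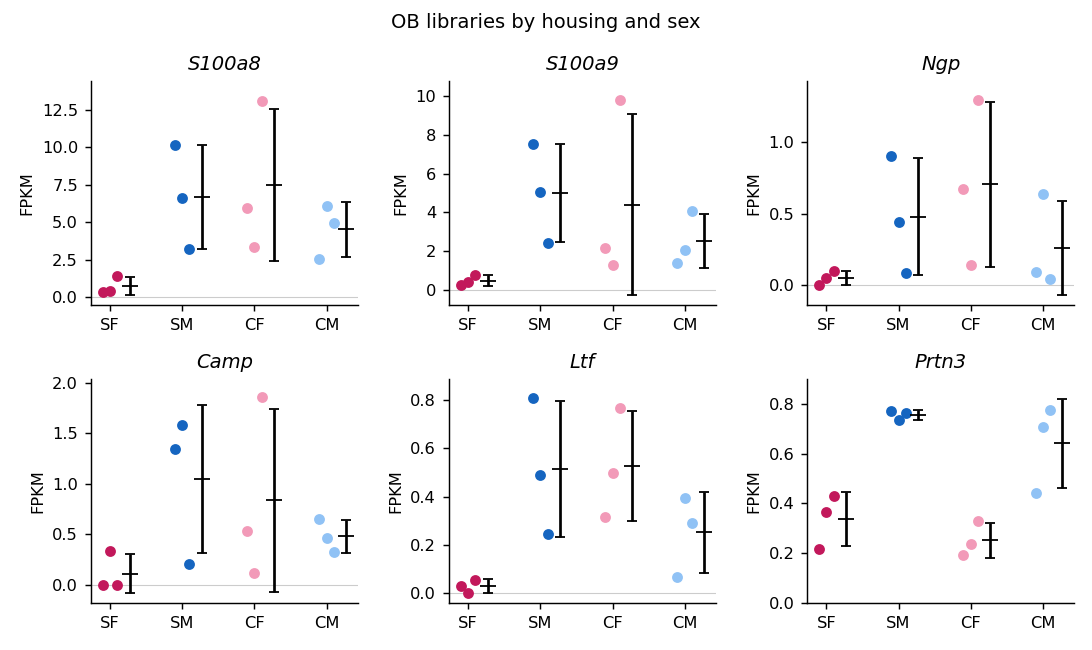
FPKM of 6 members in the 12 OB libraries by group (coloured points; black marks are the group mean with its SD, n = 3). The SF libraries are lowest for S100a8, S100a9 and Ltf, at most 1.45, 0.786 and 0.0561 FPKM, while Prtn3 is lower in both female groups than in SM and CM.

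Camp, the other member tested in OB, was at 0, 0.336 and 0 FPKM in SF, 1.35, 1.58 and 0.209 in SM, 0.537, 0.116 and 1.86 in CF and 0.651, 0.467 and 0.322 in CM, so that SF overlapped with all 3 other groups (SF against SM -1.23 ± 0.46, adjusted p = 1). The members not tested in OB were near the floor and differed among themselves. Ltf had 0.0307, 0 and 0.0561 FPKM in SF and at least 0.0673 in the other 9 libraries. Ngp was at 0, 0.0486 and 0.101 in SF, against 0.903, 0.444 and 0.0890 in SM and 0.671, 0.146 and 1.29 in CF, and CM, at 0.0921, 0.637 and 0.0471, overlapped with SF. Elane was at 0 in all SF and all CM libraries. Of the 3 members tested, S100a8 and S100a9 were lower in every SF library of OB than in every SM and every CF library, against 7.94% and 3.72% of all genes tested. Prtn3 was a member of OB with another pattern: SF had 0.215, 0.367 and 0.429 and CF 0.191, 0.236 and 0.329, below all SM (0.770, 0.734 and 0.763) and all CM libraries (0.440, 0.708 and 0.776), at a median of 6.00 fragments per library.

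Marker lists of other cell types were summed in the same OB libraries. The macrophage list (7 of 7 genes present) summed to 61.1 to 73.5 FPKM in SF and 58.7 to 71.5 in SM. The erythroid list (11 of 13 genes present) summed to 133 to 217 in SF, 153 to 182 in SM and 178 to 268 in CF. The nasal gland list (11 of 11) summed to 0.00879 to 4.62 in SF and 1.20 to 19.7 in SM, with Odam, Lcn3 and Lcn4 at 0 in all SF libraries, and the B cell precursor list (6 of 6) to 0 to 0.120 in SF and 0.185 to 0.369 in SM, with 5 of its genes at 0 in SF. In CF and CM, where S100a8 was higher than in SF, the B cell precursor list summed to 0.0167 to 0.0716 and to 0 to 0.153. The bone list (7 of 7) summed to 8.38 to 8.55 in SF, 8.70 to 8.84 in SM, 8.64 to 11.8 in CF and 7.55 to 9.03 in CM, and the list of MOE markers (4 of 4) to 43.9 to 45.8 in SF, 46.3 to 49.8 in SM, 36.8 to 40.8 in CF and 44.1 to 53.8 in CM. The macrophage and erythroid sums of SF and SM overlapped, as did those of the gland list, while the B cell precursor, bone and MOE marker sums were lower in SF than in SM without overlap. Of all genes tested, 7.94% were lower in SF than in SM without overlap. Between SF and CF the bone sums again did not overlap, with SF lower, and the MOE marker sums were higher in SF. There 5.86% of all genes did not overlap, 3.72% with SF lower. Most of the bone sum in OB was Sp7 (5.44 ± 0.572 FPKM, n = 12) and Col1a1 (2.34 ± 1.02), while Bglap, Bglap2, Ibsp and Phex averaged at most 0.296. The sums of the other neutrophil lists overlapped. The 8 other mature genes summed to 0.325 to 0.664 in SF, 0.343 to 0.853 in SM and 0.422 to 0.553 in CF. Of these, Cxcr2 and Clec4d were at 0 in all SF libraries, and Clec4d also in all SM libraries. The 11 other genes listed with the secondary and tertiary granules summed to a median of 2.61 in SF and 3.07 in SM with overlapping ranges. Most of this was Pglyrp1 (2.12 ± 0.421 FPKM, n = 12), the 1 tested, with a log2 change of 0.22 between SF and SM. Cd177, Fcnb, Itgb2l, Padi4 and Ly6g, with OB means of at most 0.0466 FPKM, were at 0 in all SF libraries. All 11 were above 0 in at least 1 SM library, while Ly6g was at 0 in CF and Fcnb and Ly6g in CM. The part of these cells in the S100a8 result was not tested.

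The difference between SF and SM in S100a8 was more negative in OB than in MOE by a log2 difference of -2.08 ± 0.58 and than in VNO by -2.10 ± 0.58, and neither passed (limma, adjusted p = 0.962 and 1). These differences of differences were chosen after values had been seen. They called 0 of the 8 members and 0.0205% and 0.00683% of all genes.

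In MOE, the SF group was divided. Libraries SF1 and SF2 had the lowest levels of several members and SF3 did not: S100a8 was at 19.7, 19.0 and 38.0 FPKM, Ngp at 1.70, 1.33 and 4.40, Camp at 0.706, 1.62 and 6.67, and Mpo at 0.210, 0.179 and 1.05. In CF, S100a8 was at 30.1, 53.7 and 45.5 and Ngp at 3.12, 7.60 and 4.95. Ltf went against this, at 170, 316 and 173 FPKM in SF. Between SF and CF of MOE, 5 of 9 members tested had an unadjusted p under 0.05, all lower in SF, as did 2.03% of all genes. The 5 were Prtn3, Ngp, Camp, S100a8 and Mpo, and 0 of them passed after adjustment (adjusted p = 1). The median change of the 9 was -0.67 and that of all genes 0.06. Erythroid markers had a median change of -0.76 in the same comparison. Of the 8 tested, 4 had an unadjusted p under 0.05 and 0 passed after adjustment. The list summed to 182 to 360 FPKM in SF and 267 to 479 in CF, with overlap. The part of erythroid cells in the members' differences was not tested.

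Prtn3 had the smallest p in MOE. Its FPKM was 0.375, 0.220 and 0.854 in SF, 1.47, 1.48 and 0.957 in SM, 1.09, 1.07 and 1.30 in CF and 0.519, 0.912 and 0.778 in CM, so that SF lay below SM while CF lay above CM, both without overlap. Of the 9 members tested in MOE, the groups failed to overlap for 2 between SF and SM (Prtn3 and Retnlg, both lower in SF), for 3 between CF and CM (Retnlg lower, Mpo and Prtn3 higher in CF) and for 1 between SF and CF (Prtn3, lower in SF), against 14.2%, 4.13% and 10.4% of all genes in either direction. The SF-SM difference was -0.91 ± 0.22 (adjusted p = 0.323) and the interaction -1.34 ± 0.31 (adjusted p = 0.457). Without SF3, both passed, at -1.17 (adjusted p = 0.0439) and -1.60 (adjusted p = 0.049). In MOE, 0.0944% of all genes were called between SF and SM and 0.029% in the interaction.

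Retnlg was lower in females in MOE under both housings. It had 0.715, 1.04 and 1.03 FPKM in SF against 1.79, 2.16 and 1.58 in SM, and 1.35, 0.965 and 1.67 in CF against 1.74, 2.48 and 2.66 in CM. Neither pair of groups overlapped, where 6.54% and 0.312% of all genes had females lower without overlap. The differences were -0.71 ± 0.19 (adjusted p = 0.509) and -0.61 ± 0.19 (adjusted p = 1), and did not pass. No other member of the mature set showed this in MOE: S100a8 and S100a9 overlapped in both comparisons.

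In VNO, Retnlg again was lower in SF (0.479, 0.560 and 0.654 FPKM) than in SM (1.24, 1.99 and 1.54), with a log2 change of -0.96 ± 0.27 (adjusted p = 0.392), and CF (0.506, 1.05 and 0.799) overlapped with CM (1.95, 0.540 and 1.49). Ltf was lower in SF (1039, 1267 and 1196 FPKM) than in SM (1618, 1601 and 1458), with a log2 change of -0.42 ± 0.17 (adjusted p = 0.539), although it had more fragments than any other member, 38268 to 102828 per library. Ngp was at 0.425, 0.535 and 0.340 in SF and 0.760, 1.96 and 1.77 in SM, and Camp at 0, 0.618 and 0.102 in SF and 0.563, 1.68 and 2.01 in SM. Of 8 members tested, 4 had an unadjusted p under 0.05 between SF and SM (Retnlg, Camp, Ltf and Ngp), against 8.79% of all genes, and 8 of 8 had a negative change, with a median of -0.49 against -0.08 over all genes. VNO had 0.0721% of all genes called between SF and SM. Elane was at 0 in all 3 SF libraries of VNO and at 0.141, 0.413 and 0.353 in SM. The nasal gland list summed to 13537 to 19175 FPKM in SF and 18460 to 21292 in SM of VNO, with 4 of 10 genes tested at an unadjusted p under 0.05. The megakaryocyte and platelet list summed to 8.25 to 9.17 in SF and 11.6 to 12.6 in SM, and the list of OB markers to 0.690 to 1.03 and 1.85 to 1.97. Both were lower in SF without overlap, as were 12.9% of all genes tested. Most of the OB marker sum in VNO was Gad1 (1.36 ± 0.474 FPKM, n = 12), while Th, Eomes and Slc17a7 averaged at most 0.0584. Gad1 was the 1 of the 4 tested, and its log2 change of -0.86 passed (limma, adjusted p under 0.05). Of the MOE markers, 3 of 4 had an unadjusted p under 0.05 (median change -0.62). The part of these in the members' differences was not tested.

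Immature and mature genes were set against each other as the mean log2(FPKM + 0.5) of the 7 immature members minus that of the 3 mature members in each library. This score is a description and was not tested. Its median was -1.42 in MOE (range -1.92 to -1.22), -1.04 in VNO (-1.55 to -0.61) and -1.55 in OB (-2.30 to -0.43). Leaving out Lcn2 and Ltf turned the order of the sensory epithelia around, with a median of -2.61 in MOE, of -3.14 in VNO and, for OB, -1.57. In OB the SF libraries stood apart, at -0.92 to -0.43 against -2.30 to -1.12 in the other 9. The OB median moved from -1.55 to -2.29 at a pseudocount of 0.1, and most immature members there were read from few fragments. At that pseudocount the SF libraries of OB no longer stood apart, with SF3 at -1.79 and CM1 at -1.77. In MOE the CM libraries (-1.92 to -1.60) lay below all SF (-1.37 to -1.22) and all CF libraries (-1.46 to -1.35) and overlapped with SM. At a pseudocount of 0.1 CM overlapped with SF in MOE (SF2 at -1.86, CM2 at -1.80). Without Lcn2 and Ltf it did so too (SF2 at -2.84, CM2 at -2.72), and in both settings CM stayed below CF. With a pseudocount of 0.5 and all 7 immature members, medians ran from -1.61 in CM to -1.33 in SF in MOE, and from -1.22 in CM to -0.97 in CF in VNO.

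**Figure D4:**
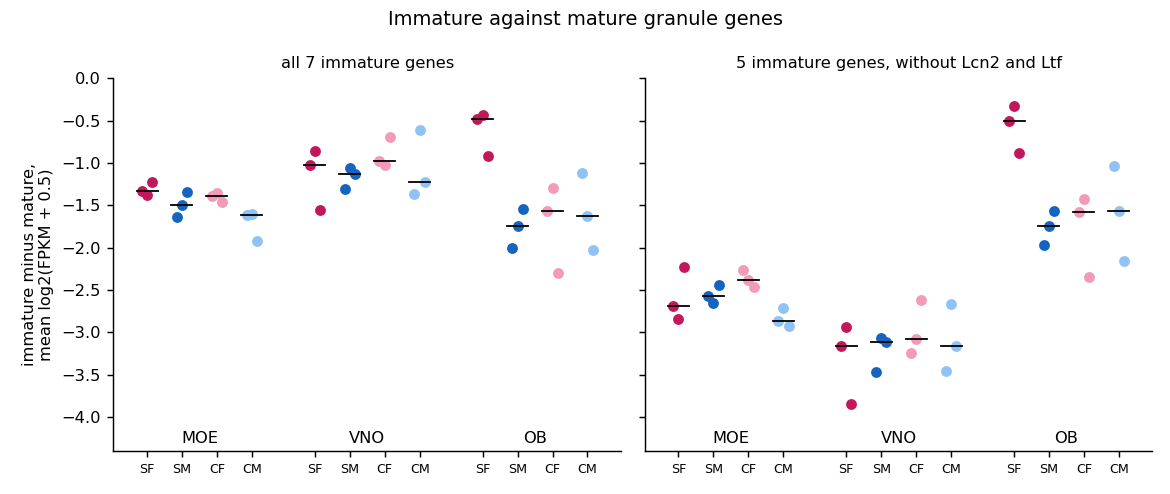
Mean log2(FPKM + 0.5) of the immature members minus that of the mature members, 1 point per library and bars at group medians, with all 7 immature genes (left) and without Lcn2 and Ltf (right). The median of VNO moves from -1.04 to -3.14 when Lcn2 and Ltf are left out, and that of OB from -1.55 to -1.57.

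Co-variation across libraries was strongest in MOE for Ngp, Camp, Mpo, S100a8 and S100a9. Among the 8 members other than Ltf and Lcn2, Pearson's r over the 12 MOE libraries had a median of 0.71 over 28 pairs, of which 21 were over 0.5. The other 7 were the pairs of Retnlg, from 0.0205 with Elane to 0.451 with Prtn3. At the top stood Ngp and S100a8 at the top (r = 0.971, Spearman's rho = 0.951, permutation adjusted p = 0.00015, of which the raw 1e-05 is the smallest p that 100000 resamples can give). Without the 2 libraries farthest from the median of Ngp, SF1 and SF2, r was 0.937, and with group means removed 0.955. Camp and Ngp had r = 0.888 and S100a8 and S100a9 0.960, the latter as a description with no test. Ltf had r between -0.372 and -0.00346 with these 8, and -0.141 with Ngp (permutation adjusted p = 0.662), a sign that turned with group means removed (0.158), without SF1 and SF2 (0.396) and as Spearman's rho (0.084). Lcn2 had 0.206 with Ngp (permutation adjusted p = 0.558).

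In VNO, Elane and S100a8 had r = 0.747 (Spearman's rho = 0.623, permutation adjusted p = 0.0162), which fell to 0.630 (adjusted p = 0.119) without the 2 libraries farthest from the median of Elane, and to 0.650 (adjusted p = 0.0826) with group means removed, neither past the threshold. Elane was read from few fragments there. Ngp and S100a8 had r = 0.606 (rho = 0.510, permutation adjusted p = 0.0896), and the r of Ltf with the 8 ran from 0.329 to 0.786. In OB, Ngp went with S100a8 at r = 0.825 (rho = 0.839, permutation adjusted p = 0.00757) and with Ltf at r = 0.811 (rho = 0.811, permutation adjusted p = 0.0101). Without the libraries CF3 and SM1 they were 0.718 (adjusted p = 0.072) and 0.633 (adjusted p = 0.119) over 10 libraries, no longer past the threshold. With group means removed they were 0.848 (adjusted p = 0.00487) and 0.694 (adjusted p = 0.063), p-values that can be too small. These tests form a family of 15 relations, 5 per tissue, and the genes of a library share its depth.

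**Figure D5:**
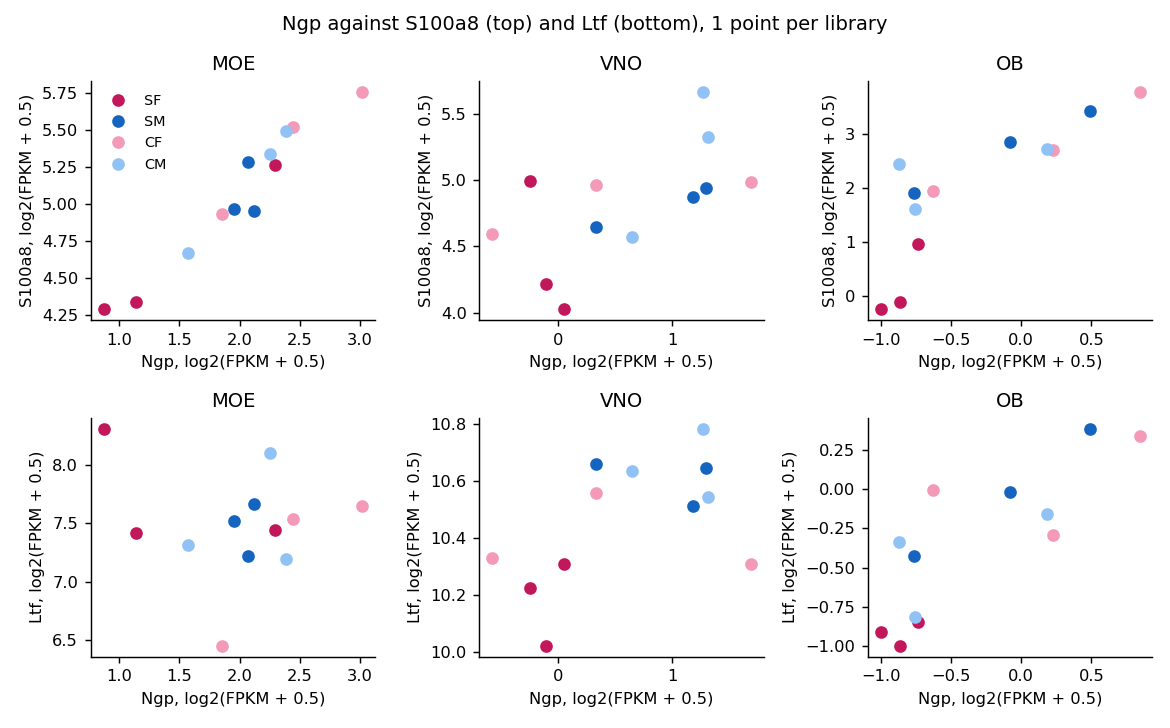
Ngp against S100a8 (top) and against Ltf (bottom), as log2(FPKM + 0.5), 1 point per library and coloured by group, in MOE, VNO and OB. In MOE, S100a8 rises with Ngp (r = 0.971) and Ltf has r = -0.141, a sign that turns to 0.158 with group means removed, to 0.396 without SF1 and SF2 and to 0.084 as Spearman's rho, whereas in OB both do (r = 0.825 and 0.811).

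The genes outside the list whose pattern over the 12 libraries was most like that of Ngp were, in MOE, Slc4a1 (r = 0.852), the anion exchanger of red cells, E2f2 (0.839) and Rexo1 (0.837), in VNO Aff1 (0.883) and Ecm1 (0.876), and in OB Gm11423 (0.804) and Bag3 (0.788). With Ltf, a comparison chosen after values had been seen, the most alike in MOE were Scgb2b27 (0.953) and Car6 (0.948), a carbonic anhydrase secreted in saliva and tears, followed by Gm13539 (0.930), Scgb1b27 (0.927), Wipi1 (0.922), Klk1 (0.886), a glandular kallikrein, Ccr2 (0.885), a chemokine receptor of monocytes, and Csn3 (0.881), a casein. In VNO they were P2rx4 (0.934) and Iqgap2 (0.925), and in OB Nbl1 (0.828) and Gm11423 (0.818). These are the highest correlations over all genes that passed the filter and carry no test.

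Other neutrophil genes were listed by the same roles. Of 11 further genes listed with the secondary and tertiary granules, 5 were tested between tissues, and 4 were higher in VNO than in MOE and 1 lower. Of all 14642 genes tested, 34% were called higher in VNO than in MOE and 48.6% lower. Pglyrp1, a peptidoglycan recognition protein, had 11.9 ± 1.90 FPKM in MOE and 74.0 ± 14.7 in VNO (n = 12 each; log2 change -2.57, adjusted p = 1.26e-19), Mmp9, a gelatinase, 5.35 ± 0.904 and 23.4 ± 4.82 (-2.03, adjusted p = 6.17e-21), and Cd177, a neutrophil surface protein, 2.82 ± 0.679 and 13.4 ± 5.69 (-1.98, adjusted p = 6.99e-12). Chil3 was the 1 higher in MOE (0.92, adjusted p = 3.17e-07). Among those not tested, all with means under 0.5 FPKM, Mmp8, Fcnb, Cebpe and Ly6g had higher means in MOE than in VNO, and Itgb2l and Padi4 lower. Of 8 further mature genes, 3 were tested: Il1b (-1.51, adjusted p = 1.28e-14) and Il1r2 (-1.04, adjusted p = 2.74e-12) were higher in VNO and Asprv1 did not pass (-0.41, adjusted p = 0.112). The chemokine receptor Cxcr2, below the filter, was at 0.177 ± 0.0607 FPKM in MOE and 1.19 ± 0.313 in VNO. The 4 further genes listed with the primary granules, Ctsg and Ms4a3 among them, summed to at most 1.05 FPKM in any library and were not tested between tissues. Ctsg, Ms4a3 and Prss57 had higher means in MOE than in VNO, and Gfi1 a lower mean. Within tissues, 0 of those tested (7 for MOE, 11 for VNO, 1 for OB) were called by sex or housing. Ly6g, a defining surface marker of mouse neutrophils, was at 0 in 3 MOE libraries, in 9 VNO libraries and in 11 OB libraries, and reached 0.383 FPKM at most.

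Markers of other cell types differed between the tissues too. The B cell precursor list summed to 2.27 to 4.24 FPKM in MOE and 0.740 to 2.01 in VNO, higher in MOE without overlap. Most of it was Vpreb3, at 3.26 ± 0.626 FPKM in MOE and 1.09 ± 0.339 in VNO, while Igll1 had the lower mean in MOE, 0.0768 ± 0.0742 against 0.182 ± 0.0830. The bone list (7 of 7 genes) summed to 89.6 to 174 in MOE and 395 to 536 in VNO. The macrophage list summed to 24.1 to 46.5 and 70.9 to 94.0, and both lists were higher in VNO without overlap. For the erythroid list the sums were 161 to 485 in MOE and 520 to 1715 in VNO, but over unlike genes. Hbb-bt had values only in MOE, and Hbb-b2 (99.5 ± 32.7 FPKM in VNO) only in VNO and OB. Of 6 erythroid genes tested between MOE and VNO, 4 were called lower and 1 higher in MOE. Of all genes, 34% were called lower and 48.6% higher. Nasal gland genes summed to 9567 to 17450 in MOE, to 13537 to 21292 in VNO and at most to 19.7 in OB. The sums of the megakaryocyte and platelet list (4 of 4) overlapped between MOE (6.08 to 12.8) and VNO (8.25 to 13.5), but its genes went opposite ways. Itga2b had 2.88 ± 0.494 FPKM in MOE and 0.568 ± 0.166 in VNO. Pf4 had 4.89 ± 1.05 and 7.66 ± 1.15, and Ppbp and Gp9 also had higher means in VNO. Of 3 tested, 1 was called higher and 1 lower in MOE. The part of these cells in the differences of Ngp, Camp, Ltf and Lcn2 was not tested.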

How the data were processed

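RNA-seq was done on 36 libraries. Per the labels and the published methods, the authors aligned paired reads with TopHat2 2.1.0 and quantified RefSeq transcripts on mm9 with Cufflinks 2.2.1.0. They deposited FPKM values with 95% limits per transcript. Versions come from the submitters' processing notes.

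Transcripts were mapped to symbols by RefSeq accession (99.7% of entries) and FPKM was summed by gene. S100a9 has 2 entries at 1 locus, whose split varied between libraries, so only the sum was used. Genes with a failed estimate were dropped (6 for MOE, 2 each for VNO and OB). Fragments were estimated by dividing FPKM by its standard error and squaring, with a floor of 3 fragments. Intervals and floors cover counting error only, as PCR copies were not told apart by molecular identifiers.

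limma 3.58.1 in R 4.3.3 (eBayes with trend) was run on log2(FPKM + 0.5) for genes whose mean FPKM reached 0.5, per tissue over 12 libraries, and over all 36 libraries between tissues. Benjamini-Hochberg adjustment covered every gene in a fit, and the threshold was an adjusted p of 0.05. Changes on this scale understate those of low genes. Replicates are pools of mice. The main fit between tissues took the 36 libraries as independent, although those of different tissues can share mice. Deviations of same-numbered libraries from their group means correlated over 0.1 in all 3 pairs for 1 of 30 pairs of groups, SF and SM in VNO (0.127 to 0.203); in VNO this held for 7 of 18 same-numbered pairs and 4 of 36 others, in MOE for 3 of 18 and 2 of 36, in OB for 2 of 18 and 6 of 36. The labels name no shared litter, batch or day. The script was tested on simulated data. Correlations used two-sided permutation tests with 100000 resamples in Python 3.11.15 with scipy 1.17.1. Where group means were removed, values were then shuffled across all 12 libraries of a tissue. That shuffling does not account for the means removed, so those p-values can be too small.

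The members and lists were chosen with earlier results of these data known. All 10 members are named, with a log2 change for those past the threshold and otherwise for the 1 with the smallest p; other changes were added after values had been seen. Genes most alike are the 8 with the highest r outside the list. Alternatives were pseudocounts of 0.1 and 1, no filter, rescaling to an equal FPKM sum, quantile normalization, a block for the replicate number, separate fits of 6 libraries and leaving out single libraries.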

Additional observations from a re-analysis of the deposited data

Results flagged for a closer look

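Prtn3 is the member that moved in opposite directions between groups, with every library on its side. In MOE it was lower in SF than in SM and higher in CF than in CM without overlap, and the test of that difference, the interaction of sex and housing, gave a log2 change of -1.34 ± 0.31 (limma, adjusted p = 0.457), which did not pass. The comparison of CF with CM also went opposite ways in MOE, where CF had 1.07 to 1.30 FPKM and CM 0.519 to 0.912, and in OB, where CF had 0.191 to 0.329 and CM 0.440 to 0.776. The difference of the 2 differences was -1.02 ± 0.32 on the log2 scale (limma, adjusted p = 0.718) and did not pass. Prtn3 was read from a median of 10.3 fragments per library in MOE and 6.00 in OB.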

How the results depend on the processing

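Of 120 recomputed counts of members called under other settings, 119 stayed within 1.5 times the reported count. The exception was SF against SM in OB, with 1 member called (S100a9) when the 6 libraries alone were fitted. When single libraries were dropped, the members called ran from 0 to 1 between SF and SM in MOE and from 0 to 1 in the MOE interaction, in both cases Prtn3 without SF3, and from 6 to 7 between VNO and OB, where Camp was lost (adjusted p up to 0.0529) without CF3 of VNO, SM3 of OB or CF2 of OB. Camp also missed the threshold there under quantile normalization (0.43, adjusted p = 0.157). The median over all genes between MOE and VNO was 0.15 as deposited and 0.01 under quantile normalization. With the replicate number as a block within tissues, 0 members were called. With group and replicate number together as the block between tissues, 6, 8 and 7 members were called. Neither block changed a call.

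Among the recomputed correlations, 88 kept their sign and side of the threshold, 7 turned, 6 lost and 4 gained the threshold. Of the immature minus mature scores 5 moved by less than 1 SD and 7 by more. Ngp with Ltf in MOE was 0.158 with group means removed, 0.396 without the 2 farthest libraries and 0.084 as Spearman's rho, and in VNO -0.12 with group means removed and 0.689 after rescaling. With group means removed, Ngp with Elane (-0.058), Elane with S100a8 (-0.099) and Ngp with Lcn2 (-0.071) turned in OB, and Ngp with Ltf in OB was 0.694, against 0.633 without the 2 farthest libraries, where Ngp with S100a8 in OB was 0.718. In VNO, Elane with S100a8 was 0.650 with group means removed, 0.630 without the 2 farthest and 0.623 as rho; Ngp with Elane was 0.758 at a pseudocount of 0.1 and 0.737 after rescaling, and Ngp with S100a8 0.671 after rescaling, the last 3 past the threshold. The immature minus mature score moved to -1.75 in MOE, -1.49 in VNO and -2.29 in OB at a pseudocount of 0.1, to -1.66 in MOE and -1.37 in VNO after rescaling, and to -2.61 and -3.14 without Lcn2 and Ltf. The cause of these shifts was not tested. Depth limits Elane, Mpo and most members in OB, which are read from a few fragments.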
